A study of Mus musculus with 721 samples.

Results

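The genes described here set the pace of the first gap phase of the cell cycle: the D cyclins Ccnd1, Ccnd2 and Ccnd3, the E cyclins Ccne1 and Ccne2, the kinases Cdk4 and Cdk6, and the kinase inhibitors Cdkn1a (p21) and Cdkn1b (p27). They were taken by symbol from the gene rows of the count table, and all 9 were found among 24483 rows. D cyclins are the partners of Cdk4 and Cdk6 and are made in response to growth signals. These complexes phosphorylate the retinoblastoma protein, which frees E2F factors, and the E cyclins, themselves products of E2F target genes, then drive entry into S phase with Cdk2. Cdkn1a, a target of p53, and Cdkn1b hold the E cyclin complexes back and also bind D cyclin complexes. Pluripotent cells of the embryo are known for short gap phases, and the epiblast shortens its cycle further around gastrulation.

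Single cells were picked by hand from wild-type C57Bl/6Babr mouse embryos and sequenced with a Smart-seq2 protocol, and the counts of 721 cells, collected at daily intervals from E3.5 up to E6.5, were analyzed. Cells held 66896 to 3792936 counts each (median 692863), and 128 wells held a pair of cells according to their titles. For each class of cells in an embryo the counts were added up, with at least 3 cells a sum, so that the embryo is the replicate and p-values measure the spread between embryos. The E3.5 class was the inner cell mass left after immunosurgery, which lyses the trophectoderm (99 cells, 10 sums). 1 of these sums holds 9 cells of plates P11, P6 and P10 whose titles give no embryo number. At E4.5, cells were epiblast-like (29 cells, 5 embryos) or primitive endoderm-like, hereafter PrE-like (76 cells in the same 5 embryos). E5.5 epiblast-like cells numbered 258 in 8 embryos, from epiblast and visceral endoderm separated by dissection. E6.5 embryos, staged as early streak and including 2 titled E6.75, gave 39 endoderm-like cells in 8 sums, and their other cells were called T-positive (at least 10 CPM of T, the brachyury gene of the primitive streak; 52 cells, 4 sums) or T-negative (150 cells, 13 sums). Levels are CPM (counts scaled to 1000000 a sum, after TMM normalization). In such sums, fewer cells of a kind and less RNA per cell cannot be told apart, nor can stage and plate. Batch below means only whether the title of an E6.5 embryo names a plate, and those titled E6.75 name none.

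Clusters were named by endoderm and epiblast markers, so the levels of these markers describe the classes and are no check of them. Summed levels of 24 endoderm markers were 15520 to 24580 CPM in PrE-like and 16670 to 40200 CPM in E6.5 endoderm-like sums, against 324 to 3511 CPM in E4.5 epiblast-like, 332 to 614 CPM in E5.5, 924 to 4201 CPM in T-positive and 813 to 11610 CPM in T-negative sums, the last from plate P3 embryo 9. Of these, Rbp4 was at 0 in PrE-like cells. Summed levels of 16 epiblast markers were 14320 to 19720 CPM in E4.5 epiblast-like and 8472 to 11730 CPM in E5.5 sums. They were 6129 to 8712 CPM in PrE-like sums, 3912 to 7482 CPM in T-negative, 4075 to 5156 CPM in T-positive and 782 to 3110 CPM in E6.5 endoderm-like sums. 8 trophoblast markers summed to 278 to 1083 CPM at E3.5, against 158 to 387 CPM in E4.5 epiblast-like and 50.3 to 128 CPM in PrE-like sums, where Tfap2c, Cdx2, Hand1 and Krt7 were at 0, and their part in the differences from E3.5 was not tested. The 9 genes were held out of the clustering that made the classes, although other genes of the same cells were used. Counting was not stated to use strand, and 7 of the 9 genes share exon bases with a gene on the opposite strand (Ccnd1 with LTO1, Ccnd2 with 9330179D12Rik and Gm43126, Ccnd3 with Bysl, Ccne2 with Ints8, Cdkn1a with AC167363.2, Cdk4 with Tspan31, Cdk6 with Gm17590), so reads from these bases cannot be assigned. Ccne1 and Cdkn1b share none.

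The stretches before the transcription starts of Cdk4, Cdk6 and Cdkn1a are shown because these genes held the highest level, the sharpest lineage contrast and the known p53 target among the members. RefSeq windows of 250 bases before the start (GRCm38.p6) were matched for 6 of the 9 members, 8 windows in all, and for Ccnd1, Ccnd2 and Ccne2 no sequence is given. Capitals mark E boxes (CACGTG), the motif bound by Myc and Max, in Cdk4 (chr10:127063285-127063534, plus strand) and Cdk6 (chr5:3343643-3343892, plus strand), and matches to the p53 response-element unit in Cdkn1a (chr17:29090729-29090978, plus strand, the first of 2 annotated starts).
Cdk4: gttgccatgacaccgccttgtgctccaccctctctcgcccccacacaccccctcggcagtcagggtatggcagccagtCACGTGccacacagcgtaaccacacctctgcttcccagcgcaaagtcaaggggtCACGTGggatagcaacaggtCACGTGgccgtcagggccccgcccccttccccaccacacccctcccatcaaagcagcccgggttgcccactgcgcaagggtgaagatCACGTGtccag
Cdk6: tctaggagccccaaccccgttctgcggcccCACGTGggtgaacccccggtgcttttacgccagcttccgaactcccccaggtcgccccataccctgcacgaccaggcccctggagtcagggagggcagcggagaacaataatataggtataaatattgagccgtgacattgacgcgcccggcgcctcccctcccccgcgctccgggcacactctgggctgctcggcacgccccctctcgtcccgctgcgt
Cdkn1a: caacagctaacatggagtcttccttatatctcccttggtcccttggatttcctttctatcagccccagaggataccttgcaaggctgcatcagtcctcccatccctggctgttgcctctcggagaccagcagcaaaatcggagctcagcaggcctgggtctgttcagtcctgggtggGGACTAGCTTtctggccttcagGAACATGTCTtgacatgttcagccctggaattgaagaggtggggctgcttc
Cdk4 held 4 E boxes, a number reached or passed in 7 of 32851 mouse windows of this length (0.0213%), while 6.02% held at least 1, as Cdk6 did. Cdkn1a held 2 p53 units, 51 and 73 bases before the start, against 85 windows with at least 2 (0.259%) and 7.13% with at least 1. GC boxes (GGGCGG) were matched 4 times in Ccne1, 1 or 2 times in windows of Ccnd3, Cdk4, Cdkn1b and the second start of Cdkn1a, and in 32.7% of all windows. The E2F sequences TTTGGCGC, TTTCGCGC, TTTCCCGC and TTTGCCGC were in none of the 8 windows and in 1.86% of all, and TATAAA was in that of Cdk6 and in 12.4% of all. Both strands were searched and overlapping matches counted, and a match is a description of letters only.

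More members passed in the comparisons of E4.5 with E3.5 than in any other, and none passed between T-positive and T-negative cells. These were also the comparisons in which the largest and the smallest share of all genes passed. A gene passed when its log2 fold change exceeded 1 in size and edgeR's quasi-likelihood test, adjusted by Benjamini-Hochberg over all genes tested, gave a p no higher than 0.05, and all 9 members were among the genes tested in each comparison. From the E3.5 inner cell mass to the E4.5 epiblast, 5 members rose and 2 fell (median log2 fold change of the 9 members 1.22, of all genes 0), where 20.9% of 14216 genes passed. Towards the PrE, 2 rose and 2 fell (0.34, against 0.11 over all genes), with 19.5% of genes passing. PrE-like cells had 2 members lower than epiblast-like cells and none higher (-0.76, against 0.03), with 7.67% passing.

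Later steps moved fewer members. From the E4.5 to the E5.5 epiblast, 1 member fell (median 0.56 over the members, 0.16 over all genes; 5.5% of genes passed), and from E5.5 to T-negative E6.5 cells 1 rose (0.42, against 0; 9.25%). In E6.5 endoderm-like cells 2 members were lower than in T-negative cells (-0.56, against -0.17; 16.2%), and 3 were higher than in E4.5 PrE-like cells (1.28, against -0.02; 12.6%). No member passed between T-positive and T-negative cells, where only 0.183% of genes passed by edgeR (median -0.19 over the members, -0.06 over all genes). In this comparison 758 genes had an unadjusted p under 0.05, and DESeq2 called none of the members either. With the embryo as a block, 701 genes in place of 2304 passed between E6.5 endoderm-like and T-negative cells, and 2 in place of 26 between T-positive and T-negative cells. The block fits kept only the 8 and the 4 embryos with both classes and left the other classes out. The part of pairing in these lower counts was not tested. With 9 genes, these counts describe the members and are no test of the group.

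**Figure D1:**
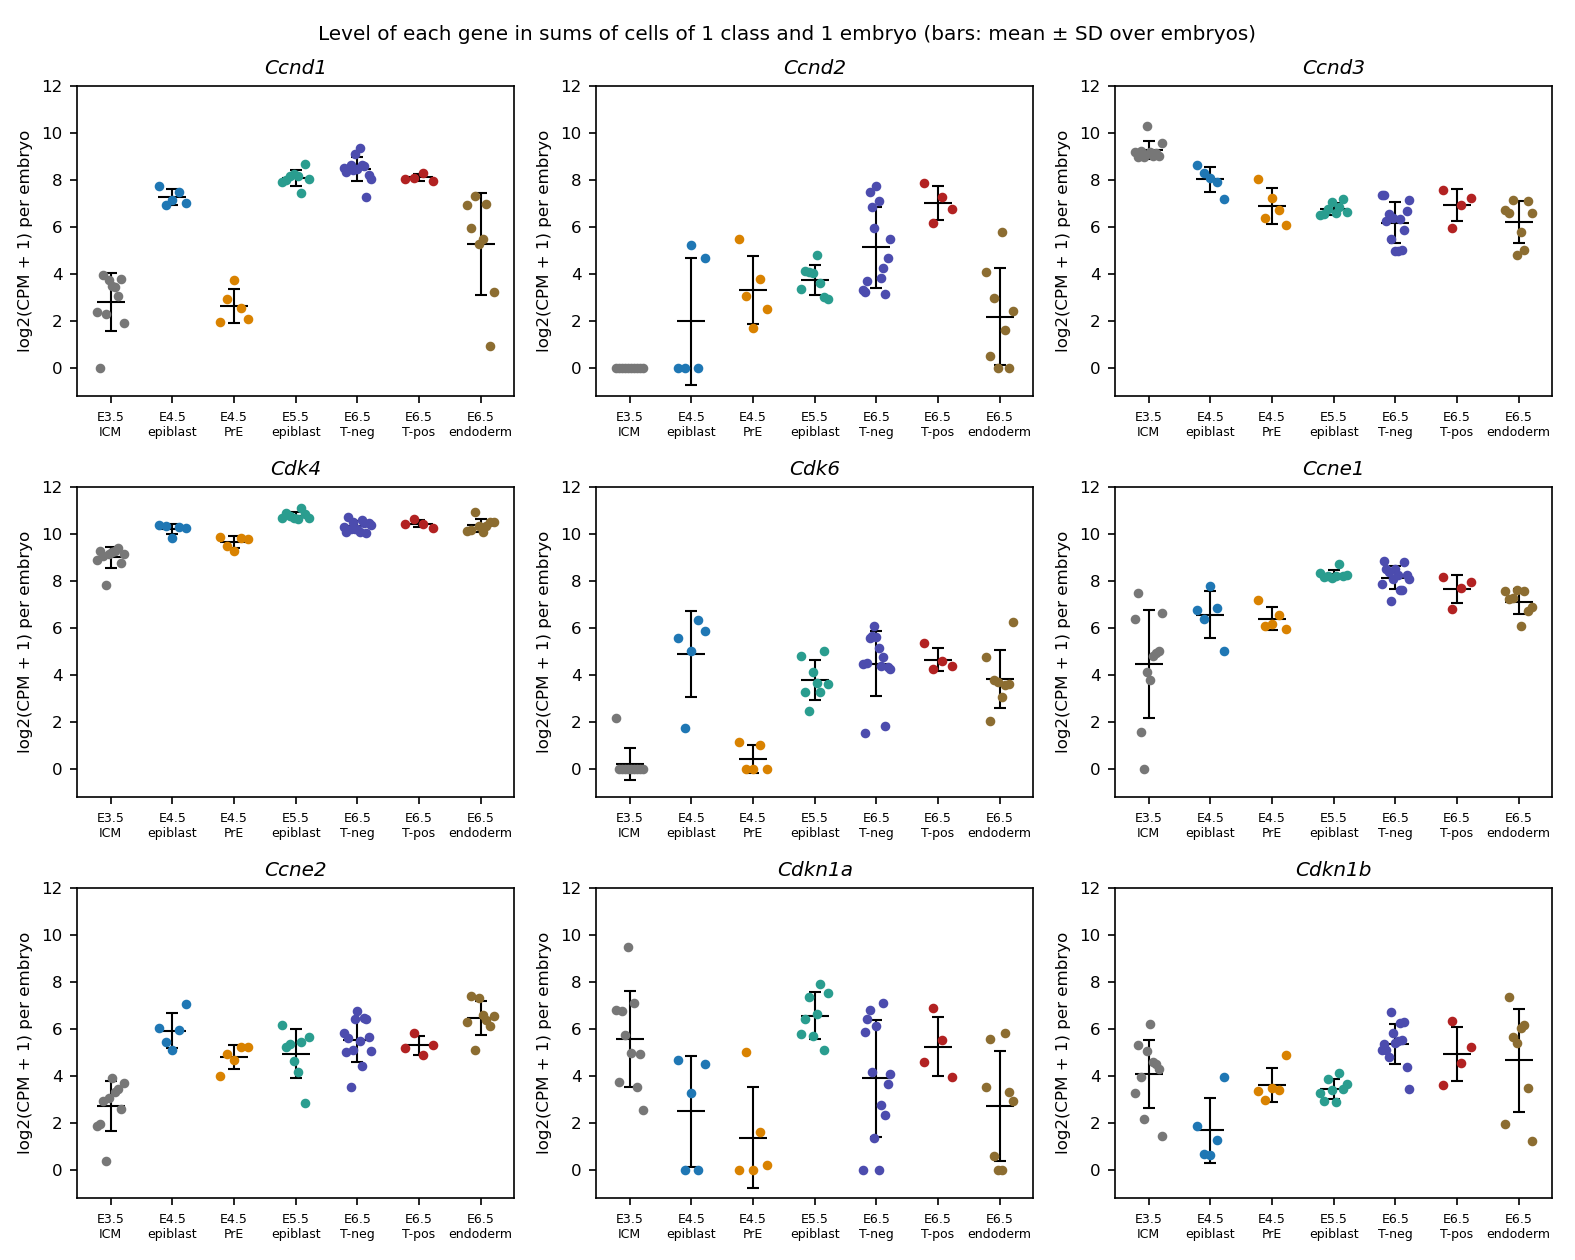
Level of each of the 9 genes as log2(CPM + 1) on the y axis, in 7 classes of cells along the x axis. Each point is the summed counts of 1 embryo, and bars give the mean and SD over embryos; Ccnd1 and Cdk6 stand high in epiblast-like and low in PrE-like sums at E4.5, and Ccnd2 is at 0 in all 10 sums of E3.5.

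Ccnd1 (chromosome 7, 144929931 to 144939925, minus strand), the D cyclin most closely tied to growth-factor signaling, rose into the epiblast and was far lower in the PrE. Its level in the E3.5 inner cell mass ranged from 0 to 14.8 CPM (median 8.74, 10 sums). The 5 E4.5 epiblast-like sums held 216, 122, 140, 180 and 127 CPM (embryos 1 to 5), and the PrE-like sums of the same embryos held 2.89, 6.66, 12.3, 4.84 and 3.29 CPM. The epiblast-like sums lay above every other sum of these groups without overlap. The rise from E3.5 was 4.32 ± 0.50 (log2 fold change ± SE, adjusted p = 2.219e-09 by edgeR), from a mean of 7.87 ± 4.96 CPM (SD, n = 10) to 157 ± 39.8 CPM (SD, n = 5). PrE-like cells were lower than epiblast-like cells by a log2 fold change of -4.73 ± 0.67 (adjusted p = 3.067e-06), in 5 of 5 embryos, and their difference from E3.5 was -0.41 ± 0.52 (adjusted p = 0.6593). Both calls stood under every alternative tried.

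After implantation Ccnd1 was the most abundant D cyclin per length in every E5.5 epiblast-like and T-negative sum. E5.5 sums ranged from 173 to 404 CPM (median 274, 8 embryos) and T-negative sums from 152 to 648 CPM (median 357, 13 embryos). These ranges overlapped with each other, and 7 of 8 E5.5 sums lay above all E4.5 epiblast-like sums. Neither step passed (E4.5 to E5.5 0.82 ± 0.53, adjusted p = 0.4049; E5.5 to T-negative 0.42 ± 0.41, adjusted p = 0.5798). Of single cells, 26 of 29 E4.5 epiblast-like, 251 of 258 E5.5 and 147 of 150 T-negative cells had at least 10 CPM of Ccnd1, against 19 of 99 at E3.5 and 8 of 76 PrE-like cells.

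Ccnd3 (chromosome 17, 47505051 to 47599691, plus strand) took the opposite course. It ranged from 506 to 1247 CPM at E3.5 (median 578, mean 642 ± 225, n = 10), with the highest value in plate P8 embryo 4. The E4.5 epiblast-like sums held 393, 312, 275, 241 and 145 CPM and the PrE-like sums 262, 82.1, 148, 103 and 66.9 CPM in embryos 1 to 5. Every E4.5 sum of either lineage was below every E3.5 sum. Ccnd3 fell by 1.24 ± 0.38 on the log2 scale into the epiblast (adjusted p = 0.01343 by edgeR) and by 2.28 ± 0.40 into the PrE (adjusted p = 2.136e-05). The epiblast call was lost without E4.5 embryo 5 (adjusted p = 0.05369), while the PrE call was never lost.

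Ccnd3 was lower in PrE-like than in epiblast-like cells of the same embryo in 5 of 5 embryos (-1.04 ± 0.42, adjusted p = 0.1103). With the embryo as a block this difference passed (-1.16, adjusted p = 0.007226). From E4.5 to E5.5 epiblast it fell again, by 1.31 ± 0.37 on the log2 scale (adjusted p = 0.02109), to 91.2 to 144 CPM (median 103, 8 embryos), and the 2 groups just failed to overlap, with a lowest E4.5 value of 145 CPM. That call was lost without E4.5 embryo 1 (adjusted p = 0.06558). T-negative sums ranged from 30.5 to 166 CPM (median 79.9) and differed from E5.5 by -0.38 ± 0.29 (adjusted p = 0.4517). Within batches this value was -0.97 ± 0.29 (adjusted p = 0.02044, under the fold limit) with the E6.5 embryos on plates P1 to P3 and 0.41 ± 0.27 (adjusted p = 0.5551) with the 4 embryos whose titles name no plate.

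Ccnd2 (chromosome 6, 127125162 to 127152193, minus strand) had no count in any of the 99 E3.5 cells, where 3 counts over the class correspond to 0.0509 CPM. Against that floor, counts pooled over a class were at least 285-fold higher in E4.5 epiblast-like, 248-fold in PrE-like, 274-fold in E5.5 and 1178-fold in T-negative cells. All 5 PrE-like sums held Ccnd2 (44.5, 7.31, 2.27, 12.8 and 4.79 CPM), whereas epiblast-like sums were at 0 in 3 of 5 embryos and at 36.6 and 24.6 CPM in embryos 3 and 5. Both rises passed (adjusted p = 5.206e-06 for PrE and 8.928e-06 for epiblast by edgeR), and the fitted folds depend on the prior count because E3.5 is at 0. An exact permutation test over embryos, unadjusted and 1 of 72 run for the members, gave a two-sided p of 0.000666 for PrE, the smallest that 3003 arrangements can give, and 0.1905 for epiblast. The PrE value follows from the lack of overlap with E3.5 and adds nothing to it. Few cells carried the gene, 4 of 29 epiblast-like and 14 of 76 PrE-like cells with at least 10 CPM, and in the epiblast-like sums that held it a median of 89.25% of the counts came from 1 cell.

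Compared per length of exons, the make-up of the D cyclins turned over from E3.5 through the epiblast-like classes to T-negative cells. The share of Ccnd3 in the summed D cyclin level (CPM per kb) had a median of 97.9% at E3.5 (95.6 to 100% over 10 sums), 48.2% in E4.5 epiblast-like (35.7 to 57.7%), 16.5% in E5.5 (14.5 to 25.6%) and 9.67% in T-negative sums (2.24 to 21.2%). The T-negative median differed by batch, 7.10% in the 9 embryos on plates P1 to P3 and 20.1% in the 4 embryos without a plate name, so it lay below the E5.5 median in the first batch and above it in the second. The share of Ccnd1 had medians of 2.09, 50.6, 81.5 and 81.5% in the same order. In PrE-like sums the median share of Ccnd3 was 84.8% (81.0 to 86.3%) and that of Ccnd1 7.91%, and with Ward clustering these were 74.8 and 14.7%. Ccnd1 exceeded Ccnd3 per length in 0 of 10 sums at E3.5, 3 of 5 E4.5 epiblast-like, 0 of 5 PrE-like, 8 of 8 E5.5 and 13 of 13 T-negative sums. The summed D cyclin level itself was 74.9 ± 26.0 CPM per kb (SD, n = 10) at E3.5, 65.8 ± 16.0 (n = 5) in E4.5 epiblast-like, 72.9 ± 15.3 (n = 8) in E5.5 and 95.4 ± 28.2 (n = 13) in T-negative sums, ranges that overlap, against 17.9 ± 10.48 (n = 5) in PrE-like and 25.8 ± 13.8 (n = 8) in E6.5 endoderm-like sums. The shares are descriptions without a test.

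**Figure D2:**
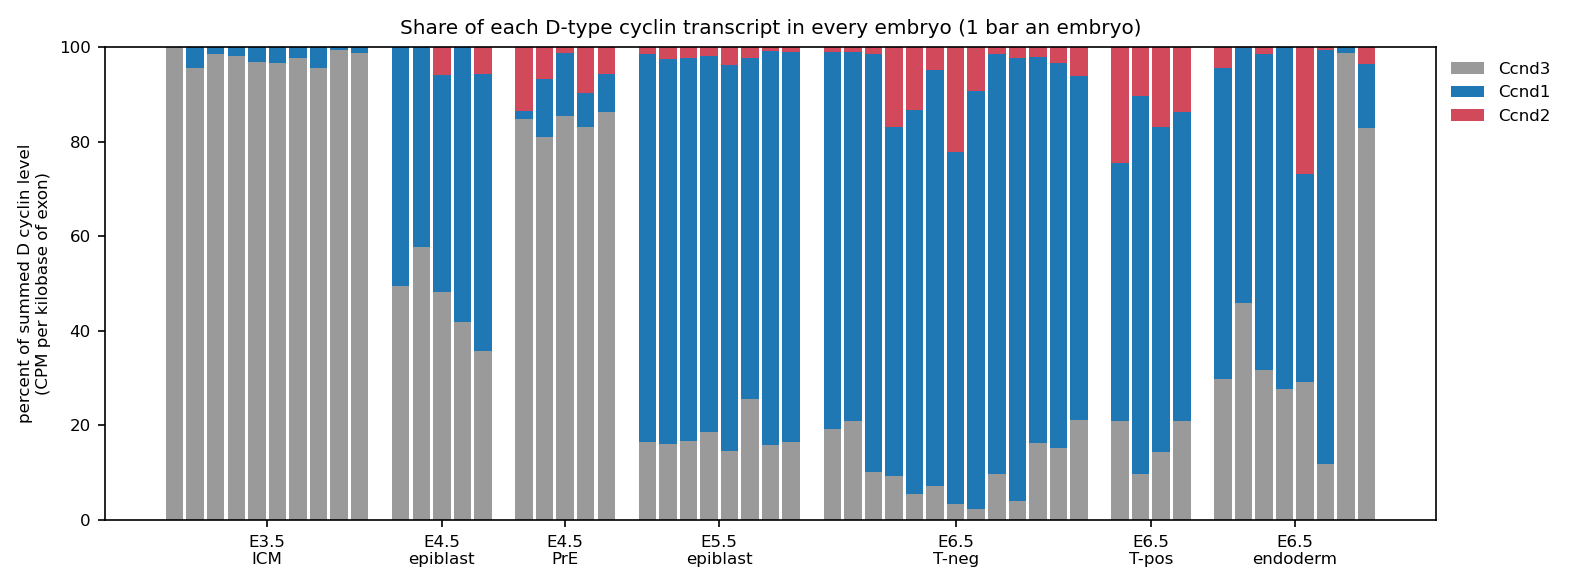
Share of Ccnd3 (grey), Ccnd1 (blue) and Ccnd2 (red) in the summed D cyclin level (percent, from CPM per kb of exons) on the y axis for the 7 classes of cells along the x axis. Each stacked bar is 1 embryo; the median of Ccnd3 passes from 97.9% at E3.5 to 9.67% in T-negative cells (7.10% on plates and 20.1% without a plate name, where E5.5 is at 16.5%) while that of Ccnd1 passes from 2.09 to 81.5%.

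Cdk4 (chromosome 10, 127063534 to 127067920, plus strand) was the major kinase in every sum. Per length it made up at least 98.5% of the Cdk4 and Cdk6 level in each of the 53 sums. E3.5 sums ranged from 224 to 673 CPM (median 566), with the lowest in plate P8 embryo 3. E4.5 epiblast-like sums held 1324, 1279, 910, 1258 and 1216 CPM and PrE-like sums 927, 723, 616, 922 and 874 CPM. The epiblast-like sums lay above all E3.5 sums, and the rise was 1.17 ± 0.16 (adjusted p = 6.819e-08 by edgeR), which came under the fold limit with Ward clustering (0.89). In PrE-like cells the difference from E3.5 was 0.61 ± 0.16 (adjusted p = 0.003375), below the fold limit.

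Cdk4 was highest at E5.5, with 1580 to 2197 CPM (median 1680, 8 embryos). All 8 E5.5 sums lay above all E4.5 epiblast-like sums, a difference of 0.56 ± 0.17 (adjusted p = 0.03639) that is below the fold limit. T-negative sums ranged from 1063 to 1710 CPM (median 1259) and differed from E5.5 by -0.43 ± 0.13 (adjusted p = 0.01984), again below the limit. Every cell in the classes of E4.5 to E6.5 had at least 10 CPM of Cdk4.

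Cdk6 (chromosome 5, 3341485 to 3531008, plus strand), which shares partners and substrates with Cdk4, followed the same lineage pattern as Ccnd1 at E4.5. At E3.5 it had counts in 1 of 10 sums only, the sum without embryo numbers (3.53 CPM, 20 counts in 2 cells). E4.5 epiblast-like sums held 46.7, 2.37, 31.3, 80.1 and 56.9 CPM, while PrE-like sums held 1.22 and 1.05 CPM in embryos 1 and 4 and 0 in the other 3 embryos. The 2 lineages did not overlap. The rise into the epiblast was 6.82 ± 1.05 (adjusted p = 1.73e-06 by edgeR), a fold that rests on this 1 sum and otherwise on the prior count, since every numbered E3.5 embryo was at 0. Leaving the sum out moved the fitted value of PrE-like cells against E3.5 from 0.335 (adjusted p = 0.8868) to 5.37 (adjusted p = 0.00152). PrE-like cells were lower than epiblast-like cells by a log2 fold change of -6.48 ± 1.38 (adjusted p = 0.001521). With Ward clustering, which moved 5 cells from epiblast-like to PrE-like, the lineage difference was -2.80 (adjusted p = 0.1533).

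Levels of Cdk6 after E4.5 overlapped between stages. E5.5 sums ranged from 4.62 to 31.6 CPM (median 11.4) and T-negative sums from 1.89 to 67.0 CPM (median 22.1), and neither step passed (-1.54 ± 0.95, adjusted p = 0.3807, and 0.96 ± 0.79, adjusted p = 0.4938). At least 10 CPM was found in 16 of 29 E4.5 epiblast-like, 3 of 76 PrE-like, 68 of 258 E5.5 and 60 of 150 T-negative cells.

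**Figure D3:**
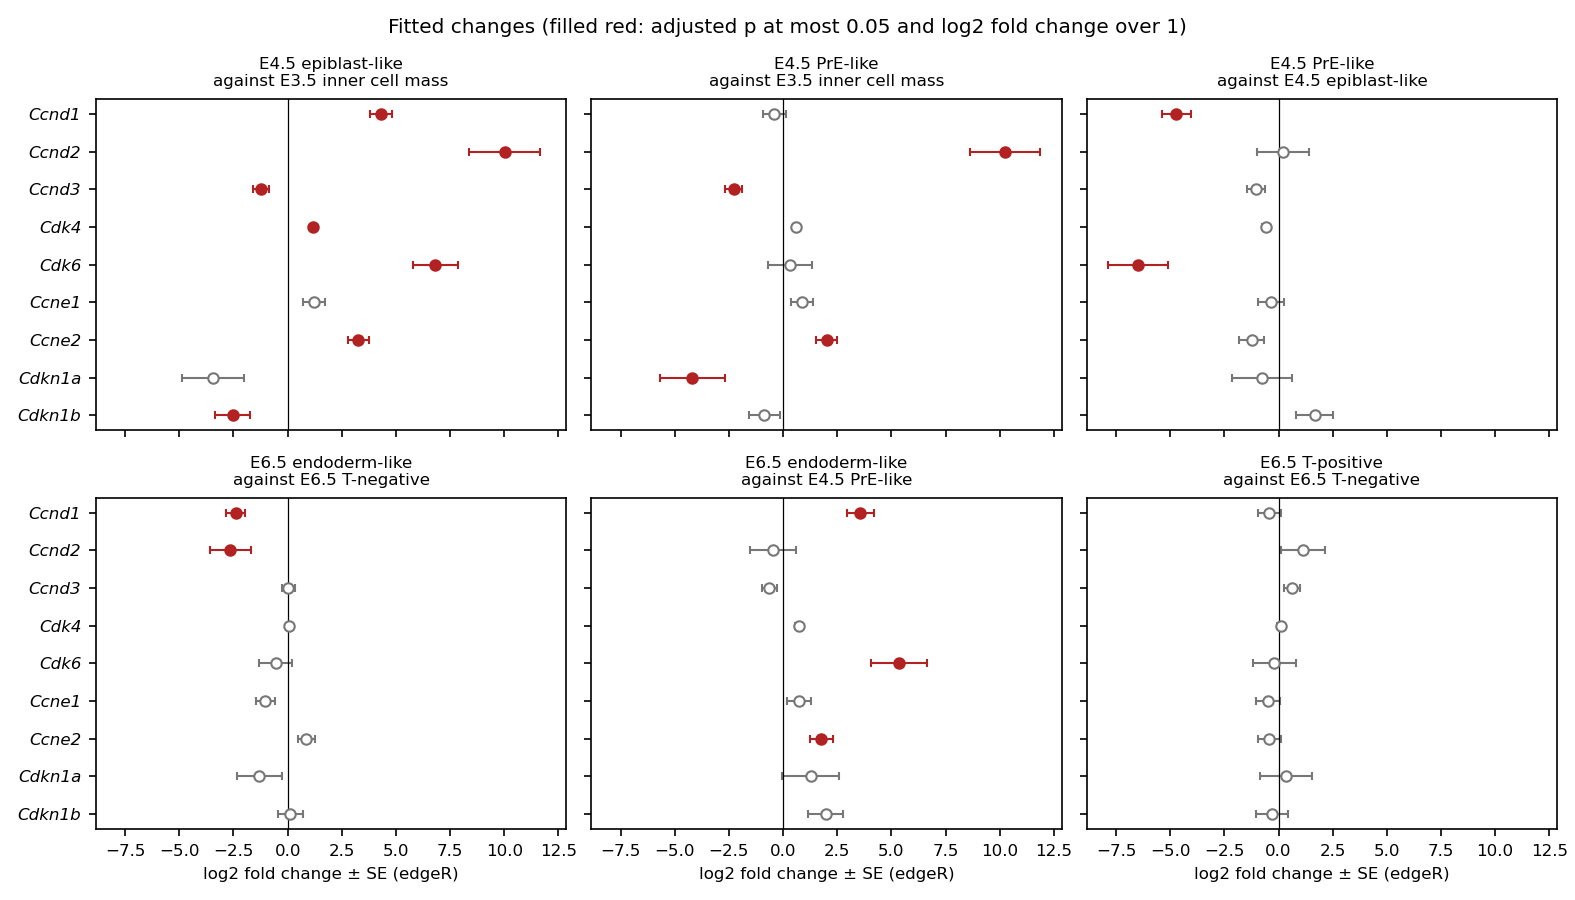
Fitted log2 fold change of each of the 9 genes on the x axis, with bars of 1 SE, in 6 comparisons between classes. Filled red points passed the test; Ccnd1, Ccnd2, Ccne2, Cdk4 and Cdk6 are red on the right for the E4.5 epiblast against E3.5, none is red for T-positive against T-negative cells, and the Ccnd2 values against E3.5, where the gene is at 0, depend on the prior count.

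Of the E cyclins, Ccne2 rose and Ccne1 did not pass between E3.5 and E4.5. Ccne2 (chromosome 4, 11191351 to 11204779, plus strand) ranged from 0.322 to 13.98 CPM at E3.5 (median 7.02), and the E4.5 epiblast-like sums held 65.2, 43.2, 33.8, 60.5 and 135 CPM and the PrE-like sums 15.0, 29.4, 24.4, 37.0 and 36.8 CPM. Both lineages lay above all E3.5 sums, by 3.26 ± 0.48 (adjusted p = 9.162e-07 by edgeR) and 2.02 ± 0.48 (adjusted p = 0.001512), calls kept under every alternative. Ccne2 was lower in PrE-like than in epiblast-like cells in 5 of 5 embryos without passing (-1.24 ± 0.58, adjusted p = 0.1815). E5.5 sums ranged from 6.20 to 71.0 CPM (median 38.9) and T-negative sums from 10.6 to 108 CPM (median 47.6).

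Ccne1 (chromosome 7, 38097984 to 38107534, minus strand) was the more abundant E cyclin per length in 8 of 10, 4 of 5, 5 of 5, 8 of 8 and 13 of 13 sums of E3.5, E4.5 epiblast-like, PrE-like, E5.5 and T-negative cells. It spread widely at E3.5, from 0 to 179 CPM (median 28.3). E4.5 epiblast-like sums held 107, 83.5, 219, 115 and 31.4 CPM, and the difference from E3.5 was 1.22 ± 0.51 (adjusted p = 0.07353). It passed in single cells only, with at least 5 cells a sum, with Ward clustering and without E4.5 embryo 5 (adjusted p = 0.02962, 0.0384, 0.04044 and 0.04619). All 8 E5.5 sums (275 to 423 CPM, median 299) lay above all E4.5 epiblast-like sums, at 1.49 ± 0.57 with an adjusted p of 0.1092. That difference passed when only these classes were fitted or when sums held at least 5 cells. T-negative sums ranged from 139 to 455 CPM (median 302) and differed from E5.5 by little (-0.07 ± 0.43, adjusted p = 0.9516). The summed E cyclin level per length was 20.0 ± 20.9 CPM per kb (SD, n = 10) at E3.5, 61.1 ± 18.5 (n = 5) in E4.5 epiblast-like, 128 ± 20.0 (n = 8) in E5.5 and 127 ± 38.1 (n = 13) in T-negative sums.

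The inhibitors were low at E4.5, and Cdkn1b rose at E6.5. Cdkn1b (chromosome 6, 134920401 to 134925513, plus strand) ranged from 1.71 to 73.6 CPM at E3.5 (median 20.3). E4.5 epiblast-like sums held 2.65, 0.592, 0.564, 1.42 and 14.6 CPM, and PrE-like sums of the same embryos 9.42, 6.88, 10.4, 9.74 and 28.6 CPM. The epiblast range overlapped with E3.5, and the level fell by 2.53 ± 0.81 on the log2 scale (adjusted p = 0.01806 by edgeR), a call lost without E4.5 embryo 2, 3 or 4 (adjusted p = 0.05565, 0.06438 and 0.05844). It was smaller and did not pass in single cells only (-1.29, adjusted p = 0.2917) or with at least 5 cells a sum (-1.60, adjusted p = 0.1392). The call was also lost when only these classes were fitted (adjusted p = 0.1117) and in the test against the fold limit (adjusted p = 0.06221). Cdkn1b was higher in PrE-like than in epiblast-like cells in 5 of 5 embryos without passing (1.67 ± 0.84, adjusted p = 0.2255).

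From E5.5 to E6.5 Cdkn1b rose. E5.5 sums ranged from 6.54 to 16.5 CPM (median 9.64) and T-negative sums from 9.91 to 106 CPM (median 41.4), and 12 of 13 T-negative sums lay above all E5.5 sums. The log2 fold change was 2.18 ± 0.63 (adjusted p = 0.01564 by edgeR). It did not pass under the first rule for naming E6.5 clusters, described below (1.61, adjusted p = 0.2403), or with at least 1 cell a sum (1.64, adjusted p = 0.1043). The test against the fold limit gave an adjusted p of 0.1237. Within batches the rise was 2.40 ± 0.59 (adjusted p = 0.005102) with the 9 embryos on plates P1 to P3 and 1.34 ± 0.74 (adjusted p = 0.431) with the 4 others. Endoderm markers also rose in this comparison, 16 of 24 (median 3.79), as did 5 of 12 streak markers, and E6.5 endoderm-like sums held 51.0 ± 53.9 CPM of Cdkn1b (SD, n = 8) against 46.8 ± 26.2 CPM (n = 13) in T-negative sums. The part of these markers in the rise was not tested. In single cells, 58 of 258 at E5.5 and 117 of 150 T-negative cells had at least 10 CPM.

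Cdkn1a (chromosome 17, 29090976 to 29100727, plus strand) varied widely between embryos. E3.5 sums ranged from 4.91 to 716 CPM (median 41.4), the highest again from plate P8 embryo 4. E4.5 epiblast-like sums held 25.0, 0, 8.74, 0 and 22.2 CPM and PrE-like sums 0, 31.6, 0, 2.10 and 0.173 CPM. The fall into the PrE passed (-4.19 ± 1.49, adjusted p = 0.03653 by edgeR) but was lost without E4.5 embryo 1, 3, 4 or 5 (adjusted p from 0.07856 to 0.0906), and that into the epiblast did not pass (-3.43 ± 1.43, adjusted p = 0.0745) except with DESeq2 (-3.52, adjusted p = 0.02517) and in single cells only (-4.86, adjusted p = 0.02293). E5.5 sums ranged from 33.7 to 243 CPM (median 92.7), all 8 above all E4.5 epiblast-like sums. The difference was 3.35 ± 1.44 with an adjusted p of 0.1601 by edgeR. An exact permutation test gave a two-sided p of 0.001554 without adjustment, the smallest that 1287 arrangements can give. That p follows from the lack of overlap and adds nothing to it, and Ccnd3, Ccne1 and Cdk4 reached it too. How many of all genes fail to overlap was not determined. When only the 2 classes were fitted the adjusted p was 0.008744 by edgeR, in a fit where more genes passed in all.

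Other p53 targets were read beside Cdkn1a at E5.5. Of 17 tested, 3 rose from the E4.5 to the E5.5 epiblast and none fell, where 5.5% of all genes passed: Plk2, a stress-induced kinase at 0 in the E4.5 sums (mean 15.0 CPM at E5.5), Pmaip1 (2.61 ± 0.61, adjusted p = 0.004567) and Bax (1.09 ± 0.27, adjusted p = 0.008229), both promoters of apoptosis. Their median log2 fold change was 1.41, against 0.16 over all genes. Into T-negative cells, where 9.25% of all genes passed, 5 fell and none rose, Plk3, Sesn2 and Phlda3 by the largest folds (-3.64, -2.16 and -2.13), with a median of -0.88 against 0. Summed over 18 targets, E5.5 sums held 1249 to 2246 CPM, above E4.5 epiblast-like (509 to 928 CPM) and T-negative sums (308 to 1057 CPM). E3.5 sums held 561 to 1700 CPM and overlapped with E5.5. Bax alone had means of 847 CPM at E5.5 and 399 CPM in E4.5 epiblast-like sums. At E5.5, 19 cells of 8 embryos formed a cluster of their own with fewer detected genes (median 4478, against 6572 in the other 241). Counts pooled over its cells gave 283 CPM of Cdkn1a, against 94.2 CPM. In these pooled values 13 of 18 p53 targets were higher, by ratios from 1.10 (Gadd45a) to 6.33 (Plk2). Zmat3, Sesn1 and Trp53inp1 were among those lower (ratios 0.196, 0.244 and 0.369). The share of all genes higher in the cluster was not determined. Embryos differed in Cdkn1a, which was higher in the cluster in 5 of the 7 embryos with both groups and at 0 in the other 2 (2 cells each). At least 10 CPM was found in 10 of the 19 and 133 of the 241 cells. Without these 19 cells the Cdkn1a difference from E4.5 was 3.11 (adjusted p = 0.1901), and the part of fewer detected genes was not tested.

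E6.5 endoderm-like cells were lower than T-negative cells in Ccnd1. Ccnd1 held 123, 61.0, 159, 38.0, 43.9, 127, 0.933 and 8.38 CPM in the endoderm-like sums, the last 2 values from the embryos titled E6.75, against 152 to 648 CPM in T-negative sums. It was lower in 8 of 8 embryos with both classes, by a log2 fold change of -2.40 ± 0.45 (adjusted p = 0.0001813 by edgeR), and 12 of 13 T-negative sums lay above all endoderm-like sums. Without the E6.75 embryos the difference was -2.08 ± 0.41 (adjusted p = 0.001034). It was -2.21 ± 0.47 (adjusted p = 0.003243) among embryos on plates and -2.83 ± 0.81 (adjusted p = 0.04516) among those without a plate name. It did not pass (-0.67, adjusted p = 0.5642) under the first rule for naming E6.5 clusters. That rule also counted as endoderm cluster 1 (23 cells), led by streak genes, and cluster 5 (89 cells), not led by them.

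Ccnd2 was lower in 6 of 8 embryos (0 to 53.6 CPM, median 3.21, against 7.81 to 213 CPM, median 24.7, in T-negative sums). The difference passed narrowly (-2.64 ± 0.96, adjusted p = 0.04614) and was lost with the embryo as a block (-4.31, adjusted p = 0.103), without the E6.75 embryos (-2.43, adjusted p = 0.1368), on plates only (-2.76, adjusted p = 0.1506) and without plate name only (-1.66, adjusted p = 0.5713). Ccnd3 differed little between the classes (0.02 ± 0.29, adjusted p = 0.9872). Ccne1 was lower in 8 of 8 embryos without passing (-1.03 ± 0.44, adjusted p = 0.09402), and Cdk4 differed by 0.05 ± 0.13 (adjusted p = 0.8465). The median share of Ccnd1 among the D cyclins was 59.9% (1.26 to 87.4%), 66.8% in embryos on plates and 13.5% in those without a plate name.

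Against E4.5 PrE-like cells, E6.5 endoderm-like cells had more Ccnd1, Cdk6 and Ccne2. Cdk6 ranged from 3.07 to 74.4 CPM (median 11.6, 8 sums), above all PrE-like sums (5.34 ± 1.28, adjusted p = 0.003208 by edgeR). Ccnd1 was higher by 3.57 ± 0.61 (adjusted p = 4.671e-05), with 6 of 8 sums above all PrE-like sums, and Ccne2 (33.1 to 171 CPM, median 87.0) by 1.77 ± 0.55 (adjusted p = 0.02439). The Ccne2 call was lost without E4.5 embryo 1 or 3 (adjusted p = 0.07556 and 0.05207) and the Cdk6 call with Ward clustering (2.28, adjusted p = 0.1647). Cdk4 was 1.66-fold higher without overlap (0.73 ± 0.17, adjusted p = 0.002601), below the fold limit. Cdkn1b differed by 1.97 ± 0.79 (adjusted p = 0.08708) and passed with DESeq2, without the E6.75 embryos, without E4.5 embryo 5 and on plates (2.56, adjusted p = 0.02588), but was -1.40 (adjusted p = 0.4429) in embryos without a plate name. Among E6.5 embryos on plates the differences were 3.84 for Ccnd1, 4.25 for Cdk6 and 1.89 for Ccne2 (adjusted p = 3.385e-06, 0.03073 and 0.04904), and among those without a plate name 2.92, 6.28 and 1.5 (adjusted p = 0.008121, 0.005954 and 0.164).

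The lineage difference itself changed between stages for 2 members by edgeR, where 4.06% of genes passed. Ccne2 passed with DESeq2 (2.22, adjusted p = 0.01366) and not with edgeR (2.11 ± 0.71, adjusted p = 0.07219). The log2 difference of endoderm-like from T-negative cells at E6.5 was set against that of PrE-like from epiblast-like cells at E4.5. It was less negative at E6.5 by 5.93 ± 1.47 for Cdk6 (adjusted p = 0.01614) and by 2.33 ± 0.72 for Ccnd1 (adjusted p = 0.04865). With Ward clustering, these values were 2.43 (adjusted p = 0.3918) and 0.52 (adjusted p = 0.8262). The Ccnd1 call was also lost without E4.5 embryo 1, 2, 4 or 5 (adjusted p from 0.08184 to 0.1566). Among embryos on plates the values were 4.51 (adjusted p = 0.09587) for Cdk6 and 2.45 (adjusted p = 0.03413) for Ccnd1, and among those without a plate name 7.80 (adjusted p = 0.02583) and 1.91 (adjusted p = 0.3351).

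In cells positive for the streak gene T, none of the 9 members passed, where 0.183% of all genes did, and Ccnd2 had the largest fitted difference. The T-positive cells of each embryo lay in a single E6.5 cluster, which differed between embryos: all 23 of embryo 2 without plate name were in cluster 1, led by Mesp1, Lefty2, Snai1 and T, the 21 of the E6.75 embryos in cluster 2 and the 8 of plate P1 embryo 3 in cluster 5, neither led by streak genes. T-positive and T-negative sums of the same embryo held 237 and 8.49 CPM of Ccnd2 in embryo 2 without plate name, the one with cluster 1 cells, 155 and 24.7 CPM in E6.75 embryo 1, 106 and 43.9 CPM in E6.75 embryo 2, and 70.6 and 115 CPM in plate P1 embryo 3. It was therefore higher in 3 of 4 embryos, while 3 T-negative sums of other embryos (137, 180 and 213 CPM) reached levels like those of T-positive cells. The log2 fold change was 1.13 ± 1.02 (adjusted p = 1.0 by edgeR), 1.995 (adjusted p = 0.9991) with the embryo as a block. Within batches it was -0.27 ± 2.14 on plates, where only plate P1 embryo 3 had a T-positive sum, and 2.93 ± 1.38 without plate name (adjusted p = 1.0 in both). Of single cells, 51 of 52 T-positive and 97 of 150 T-negative cells had a count of Ccnd2, and 48 of 52 and 73 of 150 had at least 10 CPM. T-positive cells also had more detected genes (median 8334, against 6530) at similar totals (median 532359 and 634934 counts), whose part was not tested. Ccnd2 is in the study's own list of genes of its E6.5 primitive streak cluster, drawn from these cells, so its direction here is not independent evidence.

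**Figure D4:**
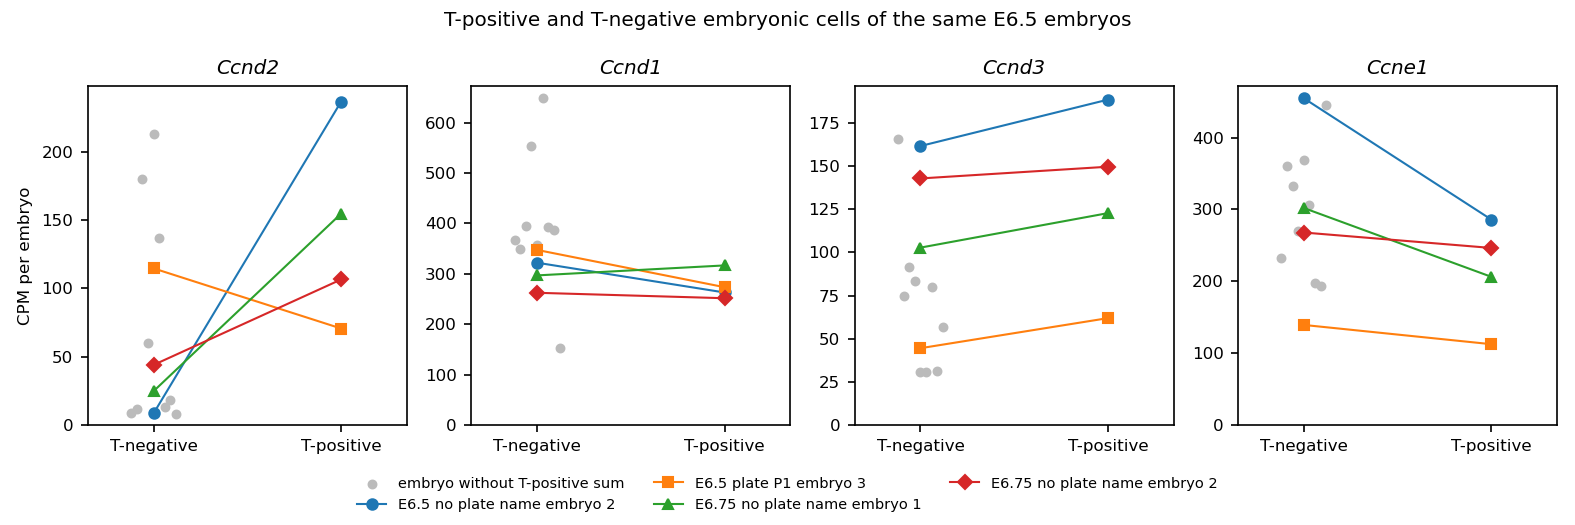
Level in CPM on the y axis of Ccnd2, Ccnd1, Ccnd3 and Ccne1 in T-negative and T-positive cells. Lines join the sums of the 4 embryos that had both and grey points are T-negative sums of the other embryos; Ccnd2 goes up in 3 of 4 embryos, Ccnd3 in 4 of 4 and Ccne1 goes down in 4 of 4, and none of these differences passed the test.

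Ccnd3 was higher in T-positive cells in 4 of 4 embryos by small amounts (189 and 162, 61.9 and 44.5, 123 and 103, 150 and 143 CPM; log2 fold change 0.63 ± 0.36, adjusted p = 0.9991). Ccne1 was lower in 4 of 4 (286 and 455, 112 and 139, 206 and 302, 246 and 268 CPM; -0.48 ± 0.56, adjusted p = 1.0). Ccnd1 held 251 to 317 CPM in T-positive sums, lower in 3 of 4 embryos (-0.43 ± 0.53, adjusted p = 1.0), and Cdk4 was higher in 2 of 4 (0.10 ± 0.17). Ccne2 and Cdk6 were each higher in 3 of 4 embryos, although their fitted values were negative (-0.43 ± 0.53 and -0.19 ± 0.98). The inhibitors Cdkn1a and Cdkn1b were each higher in 2 of 4 (0.34 ± 1.21 and -0.30 ± 0.75). The median share of Ccnd2 among the D cyclins was 15.3% in T-positive (10.3 to 24.5%) and 3.40% in T-negative sums (0.975 to 22.2%). T itself, the gene that split the cells, and Mesp1 and Mesp2, transcription factors of nascent mesoderm, were among the 26 genes that passed (Mesp1 7.14 ± 1.53, adjusted p = 0.03833), and streak markers summed to 584 to 1554 CPM against 65.4 to 653 CPM. In all, 6 cells lay at 5 to 10 CPM of T and 4 at 10 to 20 CPM, near the limit.

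The E6.5 embryos without a plate name were set against those on plates P1 to P3 in T-negative cells as a check of batch, where 0.853% of 11143 genes and none of the members passed by edgeR. Ccnd3 had the largest test value (1.34 ± 0.38, adjusted p = 0.1426), with 166, 162, 103 and 143 CPM in the 4 embryos without a plate name and 30.5 to 91.8 CPM in the 9 others, and it passed with DESeq2. These groups do not overlap for Ccnd3, and how many of all genes fail to overlap was not determined. The embryos titled E6.75 all lack a plate name, so the age in the title and the missing plate name are partly confounded. Without the E6.75 embryos the Ccnd3 value was 1.45 ± 0.52 (adjusted p = 0.4771 by edgeR).

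The neighbouring genes of the pathway are given by list, beside the 20.9% of all genes that passed from E3.5 to the E4.5 epiblast and the 19.5% towards the PrE. Of 13 Rb and E2F genes, 7 rose into the epiblast and none fell (median 1.60, all genes 0), led by E2f7 and E2f8, repressors that limit E2F targets, at 5.27 ± 0.91 and 4.57 ± 0.87, and by Rb1 at 3.501 ± 0.91. Into the PrE 5 rose, the same 3 by the largest folds, and E2f4 was lower in PrE-like than in epiblast-like cells (-1.65 ± 0.53, adjusted p = 0.04374). Of 18 E2F targets of the G1/S transition, 3 rose and 3 fell into the epiblast, Rrm2 and Cdc25a among those that fell (-1.52 ± 0.36 and -1.48 ± 0.37), while into the PrE none rose and 5 fell, among them Ung, Cdc25a and Mcm2. From E5.5 to T-negative cells, where 9.25% of all genes passed, only Cdt1 of these 18 did (-1.66 ± 0.47).

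Growth-signal and degradation genes moved singly. Of 12 Myc and mitogen-response genes, Mycn rose into the E4.5 epiblast (2.13 ± 0.46), the PrE (1.31 ± 0.46) and again from E5.5 to T-negative cells (2.17 ± 0.42), and Myc was lower in PrE-like than in epiblast-like cells (-2.98 ± 0.96, adjusted p = 0.04328). Of 11 parts of the ligases that degrade these cyclins and inhibitors, Cks1b rose into both E4.5 lineages (1.63 ± 0.19 and 1.12 ± 0.19) and Fbxo31 fell (-3.57 ± 0.91 and -2.35 ± 0.84), while Skp2, which targets Cdkn1b, rose from E5.5 to T-negative cells (1.40 ± 0.43, adjusted p = 0.0254). Of 11 tested partners and further inhibitors, Cdkn1c (p57) and Mnat1 rose into the epiblast (3.85 ± 1.06 and 1.20 ± 0.43) and Cdk7 into the PrE (1.19 ± 0.31). Cdkn2b and Cdkn2c, inhibitors of Cdk4 and Cdk6, passed from E5.5 to T-negative cells from means of 0.832 and 0.697 CPM to 0. No gene of these lists passed between T-positive and T-negative cells, where 0.183% of all genes did.

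Genes of the later cell cycle were read from a list of 32 S and G2/M genes, of which a smaller share passed from E3.5 than of all genes. Into the E4.5 epiblast 3 rose and none fell, Cdc25b, Cenpf and Ttk (Cenpf, a centromere protein, 2.12 ± 0.30), and into the PrE 3 rose, Cenpf, Mki67 and Ube2c. From E5.5 to T-negative cells, where 9.25% of all genes passed, 4 rose and 1 fell. Nusap1 was at 1.48 ± 0.37, the proliferation marker Mki67 at 1.37 ± 0.35 and Ube2c at 1.20 ± 0.26. The median over the list was 0.29 against 0 over all genes. In E6.5 endoderm-like cells Plk1, a mitotic kinase, and Chek1 were lower than in T-negative cells (-1.59 ± 0.38 and -1.14 ± 0.38), 2 of 32, where 16.2% of all genes passed.

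Upstream genes were also read in E6.5 endoderm-like against T-negative cells, where 16.2% of all genes passed. Foxo1 and Foxo3, which can activate Cdkn1b, were lower than in T-negative cells (-2.35 ± 0.71 and -1.85 ± 0.66), the only 2 of the 12 Myc and mitogen-response genes to pass, while Cdkn1b itself differed by 0.12 ± 0.57 (adjusted p = 0.9306 by edgeR). Its direction varied, lower in 5 of 8 embryos, -0.41 with the embryo as a block, 0.47 on plates and -2.42 without plate name (adjusted p = 0.7753, 0.7104 and 0.1891). Against E4.5 PrE-like cells, where 12.6% of all genes passed, 4 of the 12 were lower and none higher, among them the immediate-early genes Egr1, Fos and Jun (-6.21 ± 1.498, -4.43 ± 1.57 and -3.44 ± 1.17). Skp2 and Cdkn1c were higher (1.81 ± 0.56 and 4.21 ± 1.36) and Cdk2, the partner of the E cyclins, lower (-1.57 ± 0.46). Of the p53 targets, 4 of 17 were lower in endoderm-like than in T-negative cells, among them Plk2, Bbc3 and Zmat3, where 16.2% of all genes passed. Decidua and blood markers summed to 0 to 1569 CPM in the endoderm-like and 0 to 277 CPM in T-negative sums, and their part in these differences was not tested.

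Across the 53 sums and 8419 genes with a mean of at least 10 CPM, the genes most like each member by Pearson correlation of log2(CPM + 1) were, as a description, Pou3f1, Otx2 and Tuba1a for Ccnd1 (0.881, 0.879 and 0.868). They were Zic2, Zfp422 and Cxcl12 for Ccnd2 (0.772 to 0.761), Whamm, Gm20509 and Jam2 for Ccnd3 (0.855 to 0.845), Tuba1b, Gm5620 and Ptprf for Cdk4 (0.887 to 0.875) and Spata13, Msi2 and Igfbp2 for Cdk6 (0.841 to 0.807). For Ccne1 they were Ssbp3, Phf10 and Qser1 (0.84 to 0.817), for Ccne2 Car2, Peg3 and Abcg2 (0.807 to 0.792), for Cdkn1b Zdhhc2, Top1 and Ptp4a2 (0.721 to 0.697), and for Cdkn1a Ddit4l, Ppil1 and Gclm (0.576 to 0.541). Among the members, Ccne1 and Cdk4 (0.771) and Ccnd1 and Cdk6 (0.74) were most alike, and Ccnd3 and Ccne2 most opposed (-0.7). Sums of the same embryo, stage and plate are not independent.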

How the data were processed

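The authors deposited raw counts for each gene in each cell, made from trimmed reads aligned to GRCm38 and counted on genes with SeqMonk, and the submitters' processing notes name Trim Galore 0.4.3 and HISAT2 2.0.5. They had removed wells of more than a pair of cells, cells with few detected genes or a high mitochondrial share, and trophoblast cells. The members, lists and comparisons were chosen with earlier results of these data known. Every member is described, from each other list up to 3 passing genes with the largest fold were named, and any other gene was chosen after its values were seen.

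Stage, embryo and plate came from the labels. The clustering followed the steps of SC3 on genes detected in 6 to 94% of cells, with 8 clusters over all cells, 5 at E6.5 and 125 genes held out, and clusters were named by endoderm and epiblast markers. The first rule for E6.5 also called cluster 1 (23 cells, led by streak genes) and cluster 5 (89 cells, not led by streak genes) endoderm. The name was then given only where endoderm markers stood furthest above the other clusters, by over 0.5 in log2 units. This change was made after seeing the data. Under the first rule T-negative cells made 5 sums in place of 13. Sums of fewer than 3 cells were not used (2 T-positive, 7 E6.5 endoderm-like, 2 E5.5 epiblast-like cells), nor were the 7 E5.5 endoderm-like cells, and doublets were not called.

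Counts were summed per class and embryo, scaled by TMM, filtered for low counts and fitted together over 7 classes with edgeR 4.0.16 in R 4.3.3 (quasi-likelihood test, adjusted by Benjamini-Hochberg). The batch check had its own fit. The code was tested on simulated data. Sums held 1476466 to 49484352 counts, and the floors of 3 counts cover counting error only. Levels per length used merged exons of the GENCODE annotation, and gene coordinates are on GRCm38.

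In 3 comparisons both classes came from the same embryos, which pairs them, so the embryo was tried as a block. Deviations of paired sums from their class means correlated at 0.0437 to 0.207 at E4.5, 0.051 to 0.256 for E6.5 endoderm and 0.0681 to 0.295 for T-positive cells (8420 genes). Other alternatives were DESeq2 1.42.0, RLE scaling, no filter, a test against the fold limit, a log2 limit of 2 at E4.5, fits of only the classes compared, single cells, other cell minimums, Ward clustering, other T limits, batches apart, and embryos, cell groups or unnumbered cells left out.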

Additional observations from a re-analysis of the deposited data

Results flagged for a closer look

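In 53 groups of 4 to 10 embryos, 15 held an embryo whose level stood far from the rest. Chance gives about 1 in 20 for normally distributed values. Several of these groups held levels at or near 0, so the count does not measure an excess over chance. At E3.5, Ccnd3 was 1247 CPM in plate P8 embryo 4 (next 764.6), Cdkn1a was 716 CPM in the same embryo (next 137), Cdkn1b was 73.58 CPM in plate P8 embryo 5 (next 38.72), Cdk4 was 223.8 CPM in plate P8 embryo 3 (next 437.7), and Cdk6 was 3.532 CPM in the cells without embryo number and 0 in the others. At E4.5, PrE-like cells held 44.52 CPM of Ccnd2 in plate P1 embryo 1 (next 12.83), 31.59 CPM of Cdkn1a in plate P1 embryo 2 (next 2.102) and 28.55 CPM of Cdkn1b in plate P2 embryo 5 (next 10.42). Epiblast-like cells of that last embryo held 14.62 CPM of Cdkn1b (next 2.655), and those of plate P2 embryo 3 held 909.9 CPM of Cdk4 (next 1216). At E5.5, Ccne1 was 423.1 CPM in embryo 3 of plates P7, P4 and P5 (next 321.9). In E6.5 endoderm-like cells, Ccnd2 was 53.59 CPM in plate P3 embryo 7 (next 16.21), Cdk4 was 1942 CPM in plate P2 embryo 5 (next 1471), Cdk6 was 74.41 CPM in E6.75 embryo 2 (next 26.29) and Cdkn1b was 165.8 CPM in plate P1 embryo 2 (next 71.48).

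The difference of endoderm-like from T-negative cells at E6.5 was less negative than that of PrE-like from epiblast-like cells at E4.5 for 2 members. These were Ccnd1 (by 2.325 on the log2 scale, adjusted p = 0.04865 by edgeR) and Cdk6 (by 5.927, adjusted p = 0.01614), each by a test of the difference itself. Both calls were lost with Ward clustering (0.52 and 2.43, adjusted p = 0.8262 and 0.3918). The Ccnd1 call was also lost with RLE scaling (adjusted p = 0.05037) and in single cells only (adjusted p = 0.1192), among other settings. That of Cdk6 was lost without the E6.75 cells (adjusted p = 0.05281) and on plates (adjusted p = 0.09587).

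The 7 E5.5 endoderm-like cells of 3 embryos entered no comparison. Their pooled counts gave 1803 CPM of Cdk4, 58.67 CPM of Ccnd3, 55.34 CPM of Ccne1, 54.85 CPM of Cdkn1b, 50.41 CPM of Ccne2 and 0.493 CPM of Cdkn1a, above the 0.3697 CPM that 3 counts correspond to. Ccnd1 was at that floor, and Ccnd2 and Cdk6 had no count.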

How the results depend on the processing

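Of 22 member results past the threshold, 9 kept their call under every alternative and 13 lost it at least once, and 13 others passed only under an alternative. Of 1519 alternative values of members, 1432 kept direction and side of the threshold, 63 were weaker, 23 stronger and 1 reversed. The reversed value was Ccnd2 in E6.5 endoderm-like against T-negative cells, 1.555 (adjusted p = 0.4757 by edgeR), under the first rule for naming E6.5 clusters. This rule and the sets without 7 E6.5 or 19 E5.5 cells were chosen after seeing the data. Of the D cyclin shares, 90 stayed within the spread between embryos and 9 moved. Causes were not tested. The few E4.5 epiblast-like cells (29) and the 4 T-positive sums limit what could be detected.

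Genes passing the test against the fold limit were 1800 (E4.5 epiblast against E3.5), 1757 (PrE against E3.5), 471 (PrE against epiblast), 407 (E5.5 against E4.5), 621 (T-negative against E5.5), 1197 (E6.5 endoderm against T-negative), 1025 (E6.5 endoderm against PrE), 7 (T-positive against T-negative), 332 (lineage difference) and 12 (batch). With only the classes compared they were 1357, 1610, 2088 (E5.5 against E4.5), 842 (E6.5 endoderm against T-negative), 905 (against PrE), 1 (T-positive) and 211 (lineage difference). Ward clustering left 720 between PrE and epiblast. T-negative against E5.5 gave 2802 without a filter, 2431 on plates, 348 without plate name and 408 under the first rule. E6.5 endoderm against T-negative gave 701 with the embryo as a block, 1184 on plates, 372 without plate name and 178 under the first rule, and against PrE 800 without plate name. T-positive against T-negative gave 43 without a filter, 11 in single cells, 9 with at least 5 cells a sum, 2 with the embryo as a block, 13 without E6.75 cells, 7 on plates, 0 without plate name, 12 with any T count and 0 under the first rule. The lineage difference gave 353 with at least 1 cell a sum and 239 without plate name. The batch check gave 239 by DESeq2, 47 with at least 5 cells a sum, 7 without E6.75 cells, 40 with any T count and 2827 under the first rule.

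Members passing were 4 for E4.5 epiblast against E3.5 under the fold-limit test, and 1 for PrE against epiblast with Ward clustering. For E5.5 against E4.5 they were 0 under the fold-limit test and with at least 1 cell a sum, 3 with only these classes and 2 with at least 5 cells. For T-negative against E5.5 they were 2 with only these classes and 0 under the fold-limit test, with at least 1 cell, without plate name and under the first rule. For E6.5 endoderm against T-negative 1 passed under RLE, the fold-limit test, only these classes, single cells, at least 1 cell, Ward, the embryo block, either batch, no E6.75 cells and no cluster of 7 cells, and 0 under the first rule. For the lineage difference 1 passed under RLE, no filter, the fold-limit test, only these classes, single cells, at least 1 cell, no E6.75 cells, either batch and any T count, and 0 with Ward. In the batch check 1 passed by DESeq2 and 2 under the first rule. The block changed no other member call than those of Ccnd3 at E4.5 and Ccnd2 in E6.5 endoderm-like cells.

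Leaving out each E4.5 embryo in turn gave 2371 to 2505 genes and 6 to 7 members (epiblast against E3.5), 2253 to 2459 and 3 to 4 (PrE against E3.5), 522 to 641 and 2 to 2 (PrE against epiblast, from 1090 genes, whichever embryo was left out), 507 to 638 and 0 to 2 (E5.5 against E4.5), 1366 to 1477 and 2 to 4 (E6.5 endoderm against PrE) and 174 to 274 and 1 to 2 (lineage difference, from 577). Leaving out each T-positive embryo gave 7 to 24 genes and 0 to 0 members.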
